A study of Mus musculus with 58 samples.

Results

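Of the 15171 genes in the deposited count table, 10 encode Toll-like receptors or the proteins that work directly with them, and these 10 are described here: the receptors Tlr1, Tlr2, Tlr3, Tlr4, Tlr7, Tlr9 and Tlr13, the lipopolysaccharide co-receptors Cd14 and Ly96, and the adaptor Myd88. The rule takes each gene with one of these symbols, and all 10 were found in the table. RNA-seq was run on cortex and hippocampus, pooled for each mouse, from the injury site of 58 mice, 3 months of age. The mice carried human APOE3 (E3) or human APOE4 (E4) in place of the mouse Apoe gene (targeted replacement) on a C57BL/6 background, with both copies of Abca1 (Abca1+/+) or 1 copy (Abca1+/-), where Abca1 encodes the transporter that loads lipid onto APOE. Traumatic brain injury (TBI) was a controlled cortical impact to the left hemisphere, sham mice had the same anesthesia and craniotomy without the impact, and tissue was taken 14 days after surgery. Every group carried human APOE and had a craniotomy. The groups were E3/Abca1+/+ sham (8 mice) and TBI (8), E3/Abca1+/- sham (7) and TBI (6), E4/Abca1+/+ sham (7) and TBI (7), and E4/Abca1+/- sham (7) and TBI (8), each with both sexes.

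Toll-like receptors are innate immune sensors that bind molecules of microbes and molecules released from damaged tissue. Those at the cell surface (Tlr1, Tlr2 and Tlr4) recognise lipids and lipoproteins, and those in endosomes (Tlr3, Tlr7, Tlr9 and Tlr13) recognise nucleic acids. Most signal through Myd88 to NF-kB, whereas Tlr3 signals through the adaptor TRIF, and in the brain microglia are known as their main carriers.

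Each member is a protein-coding gene, measured over the whole gene, and positions are those of GRCm38, the assembly also named mm10 in the submitters' processing notes. Tlr2 spans chr3:83836272-83841767, Tlr1 chr5:64924679-64933563, Tlr3 chr8:45395665-45411080 and Myd88 chr9:119335934-119341411, all on the minus strand. Tlr4 spans chr4:66827584-66930284, Tlr9 chr9:106222598-106226883 and Ly96 chr1:16688051-16709611 on the plus strand, and Tlr7 (chrX:167304929-167330558, minus) and Tlr13 (chrX:106143204-106160493, plus) are X-linked. Of the 50-base windows of the Tlr1 transcripts, 13.6% also occur in transcripts of its paralog Tlr6, and 11.3% of the exonic bases of Myd88 and 7.32% of those of Tlr3 overlap exons of Acaa1a and Gm45542 on the opposite strand. Whether reads were counted by strand is not given in the sources used here, so counts of these 3 genes may hold reads of their neighbours.

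Promoter sequence was taken from RefSeq (GRCm38.p6) for 6 members with 7 start sites, since Tlr1 has 2, and Tlr4, Tlr7 and Ly96 had no entry. Cd14 was not searched. In the 250 bases before each start, searched on both strands, the ETS core GAGGAA was found before 3 of the 7 starts (Tlr1, Tlr9 and Tlr13) and before 23.3% of 32851 starts in the genome, and the NF-kB spacing (GGG and CC separated by 5 bases) before 2 (Tlr2 and Tlr3) against 45.8%. The interferon-response spacing (a pair of GAAA separated by 2 bases) was found before 1 start, that of Myd88, against 2.98%. The longer PU.1-type string GAGGAAGT, which contains the ETS core, was found before 1 (Tlr1) against 2.44%, and TATAAA before 1 (Myd88) against 12.4%. A match is a description of letters and not a site. The windows of Myd88, of Tlr3 and of 1 of the 2 Tlr1 starts lie wholly inside the annotated span of the gene. Parts of the windows, without the annotated exon bases next to the start, are printed for 5 genes. These are the gene with the largest response to injury (Tlr2), the adaptor, whose stretch thus lies within its gene, and the 3 receptors with the ETS core. Capitals mark matches to the ETS core or to either spacing on either strand, and in Tlr2 the capitals hold 2 overlapping matches.

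Tlr2, chr3:83841768-83841858, minus strand: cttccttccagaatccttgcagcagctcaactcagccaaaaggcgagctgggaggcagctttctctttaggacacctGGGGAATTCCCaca
Tlr1, chr5:64933564-64933808, minus strand: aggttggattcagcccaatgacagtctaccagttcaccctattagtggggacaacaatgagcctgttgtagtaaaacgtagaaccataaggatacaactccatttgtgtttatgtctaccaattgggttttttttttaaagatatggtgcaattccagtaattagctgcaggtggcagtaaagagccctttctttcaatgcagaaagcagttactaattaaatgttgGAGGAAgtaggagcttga
Tlr9, chr9:106222348-106222597, plus strand: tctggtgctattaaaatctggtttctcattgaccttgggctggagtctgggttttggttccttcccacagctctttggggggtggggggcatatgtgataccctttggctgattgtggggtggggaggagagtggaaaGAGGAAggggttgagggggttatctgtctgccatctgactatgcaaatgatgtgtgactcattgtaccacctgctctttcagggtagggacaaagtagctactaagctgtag
Tlr13, chrX:106143025-106143203, plus strand: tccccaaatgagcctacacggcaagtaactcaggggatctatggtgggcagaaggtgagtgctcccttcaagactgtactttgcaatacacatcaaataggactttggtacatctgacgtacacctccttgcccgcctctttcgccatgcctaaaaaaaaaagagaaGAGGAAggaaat
Myd88, chr9:119340042-119340268, minus strand: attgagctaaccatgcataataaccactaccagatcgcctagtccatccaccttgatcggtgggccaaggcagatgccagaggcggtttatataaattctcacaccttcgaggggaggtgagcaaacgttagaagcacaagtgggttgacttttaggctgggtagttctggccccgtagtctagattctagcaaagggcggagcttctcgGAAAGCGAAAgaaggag

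The libraries held 4421308 to 37877346 counts. Abca1+/- libraries were the deeper ones (median 18871445.5 counts, n = 28, against 8350020.5, n = 30), with 21 of the 28 deeper than the deepest Abca1+/+ library, so that Abca1 copies and depth largely went together. Among injured E4 mice the depths overlapped, from 5471936 to 37877346 counts in Abca1+/- and from 5192820 to 14939612 in Abca1+/+ libraries. Values with all libraries thinned to 1 depth are given where they changed a call. The mean of Abca1 itself was 35.3 CPM (counts scaled to the library's TMM-adjusted total) ± 3.84 (SD, n = 7) in Abca1+/- against 48.5 ± 6.92 (n = 8) in Abca1+/+ E3 sham mice and 35.8 ± 4.86 (n = 7) against 45.6 ± 6.42 (n = 7) in E4 sham mice. After TBI it was 104.0 ± 21.1 CPM (n = 6) against 169.95 ± 54.7 (n = 8) in E3 mice and 137.9 ± 44.5 (n = 8) against 156.0 ± 74.6 (n = 7) in E4 mice, where the ranges overlapped (81.0 to 214.5 CPM in Abca1+/- and 98.7 to 295.6 CPM in Abca1+/+ mice). With 3 counts taken as the floor of detection, the floor was 0.0792 to 0.679 CPM, covering counting error only, and the sham levels of Tlr1 (0 to 28 counts per library) and Ly96 (1 to 29 counts) reached it. Summed neuronal markers ranged from 7504.6 to 8553.9 CPM over the sham mice, and Cd4 and Cd8a, the 2 of 8 listed T and B cell markers in the table, summed to 0.200 to 1.56 CPM in sham mice.

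Per kilobase of exon, Tlr3 was the most abundant member in sham cortex and hippocampus, with a level of 3.18 CPM per kb ± 0.400 (SD, n = 29), followed by Myd88 at 2.07 ± 0.296. Cd14 (1.39), Tlr7 (1.22), Tlr13 (0.790), Ly96 (0.641), Tlr9 (0.531), Tlr2 (0.516), Tlr4 (0.446) and Tlr1 (0.177 CPM per kb) followed. Only Tlr3 against Myd88 and Tlr4 against Tlr1 were neighbours in that order whose mean ± SD ranges were apart. After TBI the order of mean levels was Cd14 (4.99), Tlr3 (4.93), Tlr2 (4.74), Tlr7 (3.78), Myd88 (3.26), Tlr13 (2.43), Ly96 (1.20), Tlr9 (1.03), Tlr4 (1.02) and Tlr1 (0.882 CPM per kb, n = 29), and no neighbours were apart by that measure. Tlr2 thus moved from the 8th place to the 3rd, and Myd88 from the 2nd to the 5th.

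To ask how injury affected the members, TBI was compared with sham within each genotype, with edgeR's quasi-likelihood test and Benjamini-Hochberg adjustment over all 15171 genes, and a gene was called at an adjusted p under 0.05. All 10 members were higher after TBI in both Abca1+/- genotypes, and 9 of 10 were higher in each Abca1+/+ genotype (all but Ly96 for E3, all but Tlr4 for E4). Of all genes, 12.5% (E3/Abca1+/+), 13.7% (E3/Abca1+/-), 9.08% (E4/Abca1+/+) and 17.7% (E4/Abca1+/-) were called higher. The median log2 fold change over the 10 members was 1.36, 1.28, 1.58 and 1.51 in the same order, against -0.00094, 0.0082, -0.0043 and -0.0020 over all genes. No member was lower, either with edgeR, where all 10 log2 fold changes were above 0 in each genotype, or with DESeq2, which called 9, 10, 10 and 10 members higher. Of all 15171 genes DESeq2 called 1931, 2080, 1482 and 2776 higher. Every TBI mouse was above every sham mouse for 4, 8, 5 and 8 of the 10 members, which was the case for 4.36%, 6.57%, 3.76% and 7.36% of all genes. In RNA from whole tissue, more cells that carry a transcript and more RNA per cell cannot be told apart.

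**Figure D1:**
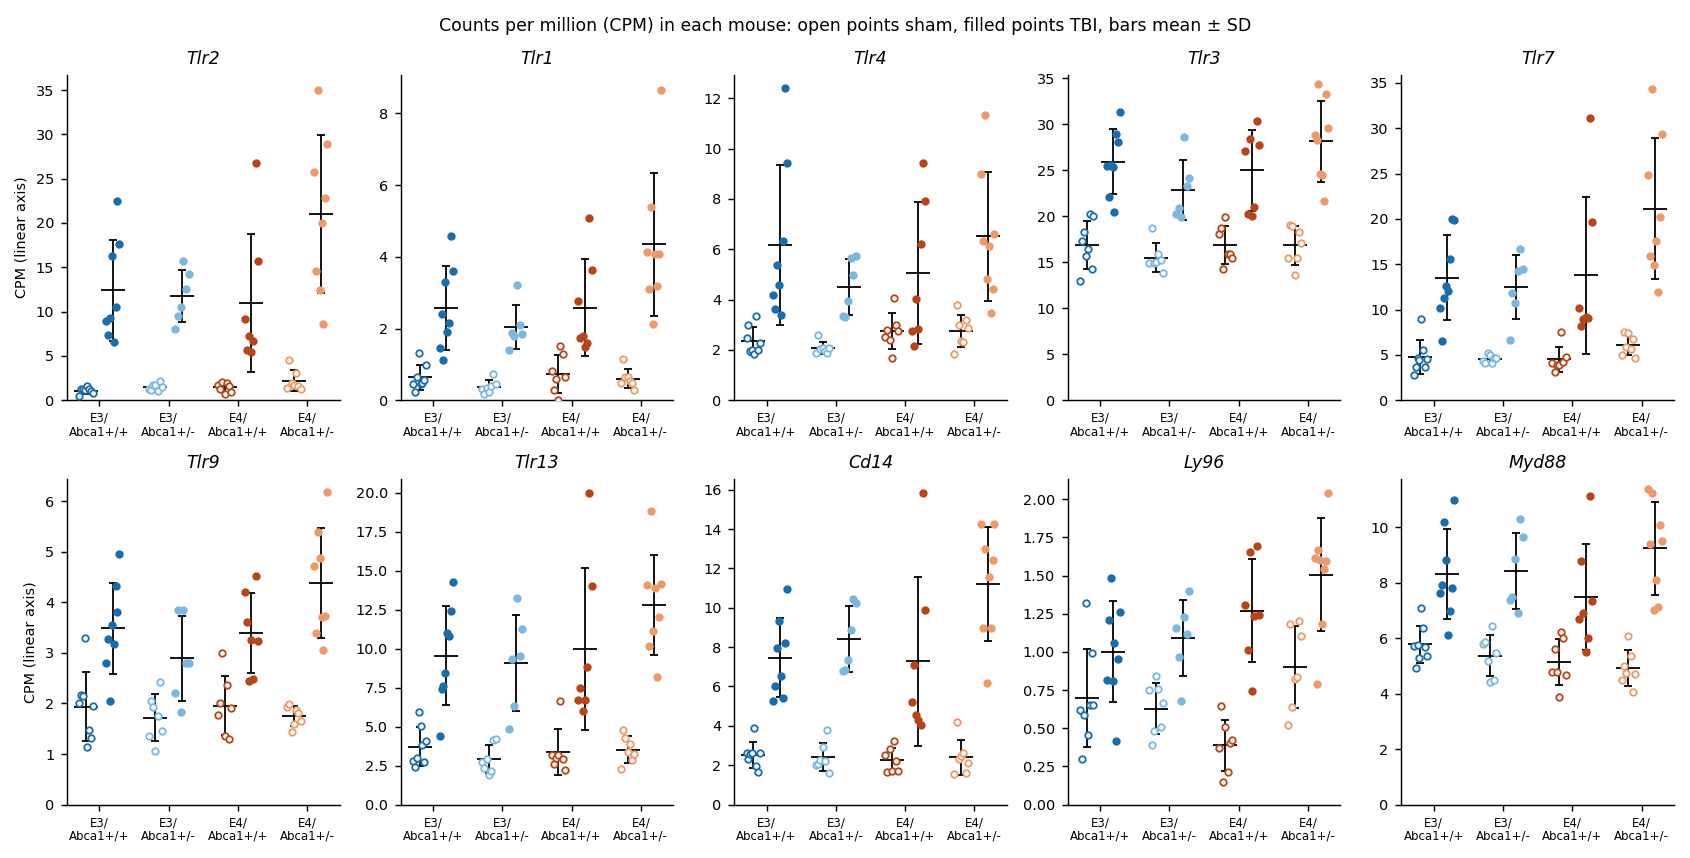
CPM of each of the 10 genes (linear vertical axes from 0) in every mouse, by genotype, with open points for sham, filled points for TBI and bars for the mean ± SD of 6 to 8 mice. Tlr2, Cd14 and Tlr3 show no overlap of sham and TBI in any genotype, whereas the points of Ly96 overlap in 3 genotypes, with 1.00 CPM after TBI against 0.697 CPM in sham E3/Abca1+/+ mice.

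Tlr2, the surface receptor for bacterial lipoproteins, rose most of the 10 members. In E3/Abca1+/+ mice its lowest, median and highest levels were 0.464, 1.17 and 1.60 CPM in sham and 6.55, 9.88 and 22.5 CPM after TBI, a 10.9-fold difference (log2 3.45 ± 0.27 SE, adjusted p = 2.8e-08). In E3/Abca1+/- mice they were 1.01, 1.50 and 2.20 CPM in sham and 8.03, 11.5 and 15.7 CPM after TBI, 7.95-fold (log2 2.99 ± 0.19, adjusted p = 4.0e-08). The injured mice of each E3 genotype lay clear of all its sham mice.

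In E4/Abca1+/+ mice Tlr2 ran from 0.674 to 2.10 CPM (median 1.60) in sham and from 5.49 to 26.8 CPM (median 7.20) after TBI, 7.27-fold (log2 2.86 ± 0.39 SE, adjusted p = 0.00014). In E4/Abca1+/- mice it ran from 1.24 to 4.52 CPM (median 1.75) in sham and from 8.63 to 35.02 CPM (median 21.4) after TBI, 9.14-fold (log2 3.19 ± 0.33, adjusted p = 2.3e-06). The groups did not overlap in either E4 genotype. The sham mouse at 4.52 CPM (replicate 2) also had the highest summed microglia markers of its group, 570.5 CPM against 397.7 to 484.6 CPM in the other 6 mice.

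Tlr1, which pairs with Tlr2 to bind triacylated lipoproteins, was the least abundant member per kb and had the next largest fold changes. It ran from 0.224 to 1.32 CPM in sham and 1.11 to 4.58 CPM in injured E3/Abca1+/+ mice (log2 2.08 ± 0.32 SE, adjusted p = 5.5e-05), and 1 of 8 sham mice lay within the TBI range. The log2 fold changes of Tlr1 in Abca1+/- mice were 2.43 ± 0.28 (E3) and 2.78 ± 0.31 (E4), both without overlap (adjusted p = 8.6e-06 and 3.6e-06). In E4/Abca1+/+ sham mice Tlr1 ran from 0 to 1.50 CPM, with a count of 0 in 1 library, and its log2 fold change was 1.79 ± 0.42 (adjusted p = 0.0080).

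Tlr4, the lipopolysaccharide receptor, rose in 3 genotypes. The log2 fold change was 1.31 ± 0.25 SE in E3/Abca1+/+ (adjusted p = 0.00050) and 1.11 ± 0.15 in E3/Abca1+/- mice (adjusted p = 6.0e-05), and sham and TBI did not overlap in either. In E4/Abca1+/- mice it was 1.22 ± 0.23 (adjusted p = 0.00049), with 1 of 7 sham mice within the TBI range. In E4/Abca1+/+ mice Tlr4 ran from 1.68 to 4.08 CPM (median 2.77) in sham and from 2.16 to 9.43 CPM (median 4.03) after TBI, and 6 of the 7 sham mice lay within the TBI range. There the log2 difference was 0.85 ± 0.30, with adjusted p = 0.072 by edgeR and 0.038 by DESeq2, and over the edgeR alternatives without omitted mice it passed with sex as a covariate (0.011), with a single fit of all mice (0.025) and at equal depth (0.029).

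Tlr3, the endosomal receptor for double-stranded RNA and the member most abundant per kb in sham mice, had the smallest mean log2 fold change over the genotypes (0.60), yet with no overlap in any of them. It ran from 12.995 to 20.3 CPM (median 16.9) in sham and 20.5 to 31.3 CPM (median 25.6) in injured E3/Abca1+/+ mice, a 1.52-fold difference (adjusted p = 8.6e-05). In the other genotypes the fold was 1.47 in E3/Abca1+/- (adjusted p = 0.00021), 1.47 in E4/Abca1+/+ (adjusted p = 0.0022) and 1.63 in E4/Abca1+/- mice (adjusted p = 4.0e-05). The E4/Abca1+/- mice ran from 13.6 to 19.02 CPM (median 17.1) in sham and from 21.7 to 34.3 CPM (median 28.6) after TBI.

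Tlr7, the receptor for single-stranded RNA, and Tlr13, which senses bacterial ribosomal RNA, rose by similar amounts. Tlr7 ran from 2.78 to 8.91 CPM (median 4.67) over the 29 sham mice and from 6.55 to 34.3 CPM (median 14.3) over the 29 injured mice, and the log2 fold change lay between 1.44 and 1.75 (largest adjusted p = 0.0017). Sham and TBI overlapped for Tlr7 only in E3/Abca1+/+ mice, where 1 of 8 sham mice lay within the TBI range. Tlr13 ran from 1.91 to 6.65 CPM (median 2.99) in sham and from 4.43 to 20.0 CPM (median 10.1) after TBI, and the log2 fold change lay between 1.41 and 1.83 (largest adjusted p = 0.0014), and its groups overlapped in both Abca1+/+ genotypes.

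Tlr9, the receptor for unmethylated DNA, rose by 0.72 ± 0.21 (SE) to 1.28 ± 0.16 on the log2 scale, with adjusted p from 9.7e-06 to 0.018. It ran from 1.07 to 3.30 CPM (median 1.87) in sham and from 1.83 to 6.19 CPM (median 3.56) after TBI, and E4/Abca1+/- was the only genotype in which sham and TBI did not overlap. The call of Tlr9 in E3/Abca1+/- mice was lost when all libraries were thinned to 1 depth (log2 0.64, adjusted p = 0.24).

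Cd14, which hands lipopolysaccharide to the Tlr4 complex, rose without overlap in every genotype. In E3/Abca1+/+ mice Cd14 had lowest, median and highest levels of 1.65, 2.596 and 3.88 CPM in sham and 5.24, 7.26 and 10.98 CPM after TBI (3.04-fold, log2 1.60 ± 0.18 SE, adjusted p = 1.7e-06). In E4/Abca1+/- mice they were 1.54, 2.30 and 4.19 CPM in sham and 6.18, 12.0 and 14.3 CPM after TBI (4.53-fold, log2 2.18 ± 0.22, adjusted p = 1.7e-06). In E3/Abca1+/- and E4/Abca1+/+ mice the fold of Cd14 was 3.55 and 3.20 (adjusted p = 1.5e-06 and 0.0013).

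Ly96 (MD-2), the subunit of the Tlr4 complex that binds lipopolysaccharide, varied most between genotypes in its fold change, at low counts. In E4/Abca1+/+ mice Ly96 ran from 0.150 to 0.647 CPM (median 0.400, 1 to 9 counts) in sham and from 0.746 to 1.70 CPM (median 1.24, 7 to 23 counts) after TBI, without overlap (2.96-fold, log2 1.56 ± 0.29 SE, adjusted p = 0.0017). In E3/Abca1+/+ mice it ran from 0.299 to 1.32 CPM (median 0.634) in sham and from 0.416 to 1.48 CPM (median 1.01) after TBI, and 7 of 8 sham mice lay within the TBI range (log2 0.48, adjusted p = 0.27). In E3/Abca1+/- mice Ly96 rose by 0.80 ± 0.23 on the log2 scale (adjusted p = 0.016) and by 0.68 ± 0.23 in E4/Abca1+/- mice (adjusted p = 0.026), with overlap in both. The E4/Abca1+/- call was lost without sham replicate 1 (adjusted p = 0.053) or without sham replicate 3 (adjusted p = 0.052).

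Myd88, the adaptor that joins most of these receptors to the IRAK kinases, rose in every genotype, with a mean log2 fold change of 0.64. It ran from 3.87 to 7.08 CPM (median 5.36) over the 29 sham mice and from 5.49 to 11.4 CPM (median 7.93) over the 29 injured mice. Its log2 fold change was 0.52 ± 0.12 SE in E3/Abca1+/+ (adjusted p = 0.0022), 0.64 ± 0.11 in E3/Abca1+/- (adjusted p = 0.00059) and 0.87 ± 0.12 in E4/Abca1+/- mice (adjusted p = 3.1e-05). In E4/Abca1+/+ mice it was 0.51 ± 0.15 (adjusted p = 0.033), and leaving out single mice (sham replicates 1, 3, 4 or 7, or TBI replicates 2, 6 or 7) gave adjusted p from 0.056 to 0.065.

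**Figure D2:**
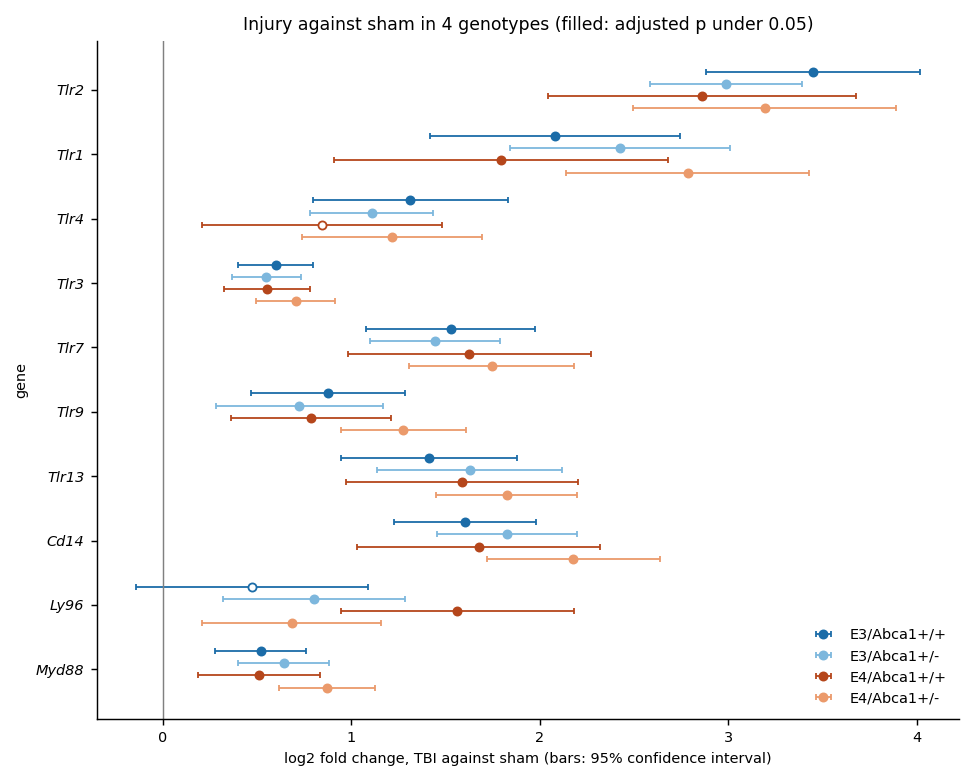
Log2 fold change of TBI against sham with its 95% confidence interval (horizontal axis) for each of the 10 genes (vertical axis) in each of 4 genotypes, filled where the adjusted p was under 0.05. Tlr2 stands at 2.86 to 3.45, Tlr3 at 0.55 to 0.71, and only Ly96 in E3/Abca1+/+ and Tlr4 in E4/Abca1+/+ mice are open.

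Microglia markers moved with these genes. The summed CPM of 10 microglia identity genes (among them P2ry12, Tmem119, Cx3cr1, Fcrls, Sall1, Siglech and Csf1r) had group medians of 435.3 to 470.1 CPM in sham and 780.3 to 1062.8 CPM after TBI. That of 10 pan-myeloid genes (Aif1, Laptm5, Tyrobp, Fcer1g, C1qa, C1qb, C1qc, Itgam, Ptprc and Spi1) had medians of 186.1 to 211.3 CPM in sham and 523.9 to 917.5 CPM after TBI. Markers of infiltrating monocytes and neutrophils had medians of 23.8 to 25.9 CPM in sham and 30.7 to 38.3 CPM after TBI, over the 7 of 10 listed genes in the table. Most of that sum was Ly6c1 (22.4 CPM over all mice), which endothelial cells also express and which had a mean log2 fold change of 0.18 and was called in 2 genotypes. The other 6 genes of that list had larger values, with mean log2 fold changes of 3.59 for S100a8, 3.31 for Plac8, 2.92 for S100a9, 2.67 for Ccr2, 2.56 for Ly6c2 and 0.94 for F13a1, of which S100a8, Plac8 and Ccr2 were called higher in all 4 genotypes.

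Marker sums of astrocytes, border-associated macrophages and neurons shifted alongside. Summed astrocyte markers had group medians of 4903.4 to 5560.3 CPM in sham and 6960.0 to 7649.7 CPM after TBI. The mean log2 fold change was 2.37 for Gfap, the filament protein of reactive astrocytes. For Aqp4, Slc1a3, Gja1, Aldh1l1 and Slc1a2 it was 1.08, 0.55, 0.53, 0.20 and 0.13. Aldh1l1 was called in 3 genotypes and Slc1a2 in 1. Markers of border-associated macrophages had medians of 7.63 to 10.3 CPM in sham and 16.9 to 18.1 CPM after TBI. Of these, Cd163 (mean log2 0.53) and Lyve1 (-0.02) were called in no genotype. Neuronal markers had medians of 7649.6 to 8021.2 CPM in sham and 6327.6 to 6838.0 CPM after TBI. Oligodendrocyte markers had medians of 2560.1 to 3157.4 CPM in sham and 2652.3 to 3420.3 CPM after TBI. Those of endothelium and pericytes had medians of 105.1 to 127.5 CPM and 118.0 to 129.0 CPM. In these last lists, 4 of 5 and 2 of 4 genes were called higher in E4/Abca1+/- mice, and 0 in the other genotypes. Cd4 and Cd8a summed to 0.552 to 12.4 CPM over the injured mice. The part of these cells in the values of the 10 members was not tested.

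To ask which members moved more than the microglia markers did, each member's counts were divided by the summed counts of the identity genes in the same mouse, and the log2 ratios of TBI and sham mice were compared by a two-sided exact permutation test, adjusted over the 40 tests. Of these 40, 18 were higher and 7 lower after TBI. Ratios of other genes were not tested, so no share over all genes stands beside these counts. The marker sum itself rose, so a gene of unchanged level would fall in this ratio. Tlr2 rose relative to the markers in all 4 genotypes, by 1.77 ± 0.28 (SE) to 2.43 ± 0.23 on the log2 scale (exact permutation test, largest adjusted p = 0.0029). Tlr7 (0.52 to 0.55) and Cd14 (0.60 to 1.07) did so in 4 genotypes, Tlr1 (0.98 to 1.63) in 3, Tlr13 (0.40 to 0.74) in 2 and Ly96 in E4/Abca1+/+ mice alone (0.68). Tlr3 fell relative to the markers in all 4 genotypes, by 0.31 to 0.43 on the log2 scale (exact permutation test, largest adjusted p = 0.027), and Myd88 in 3, while Tlr4 and Tlr9 passed in none.

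The choice of markers decided part of this. Divided by the pan-myeloid sum, 6 of the 40 ratios were higher and 19 lower, again without a share over all genes. Tlr2 was still higher in all 4 genotypes, by 1.07 to 1.71 on the log2 scale (exact permutation test, adjusted p = 0.0010 to 0.0039), and Tlr1 in E3/Abca1+/- and E4/Abca1+/- mice. Tlr7 turned from above 0 to below 0 in all 4 genotypes, and Cd14 did so in the 2 Abca1+/+ genotypes. Tlr3 was lower in all 4 genotypes with either sum, and with the geometric mean of the identity genes it was lower in 3, with E3/Abca1+/+ at -0.20 (exact permutation test, adjusted p = 0.13).

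**Figure D3:**
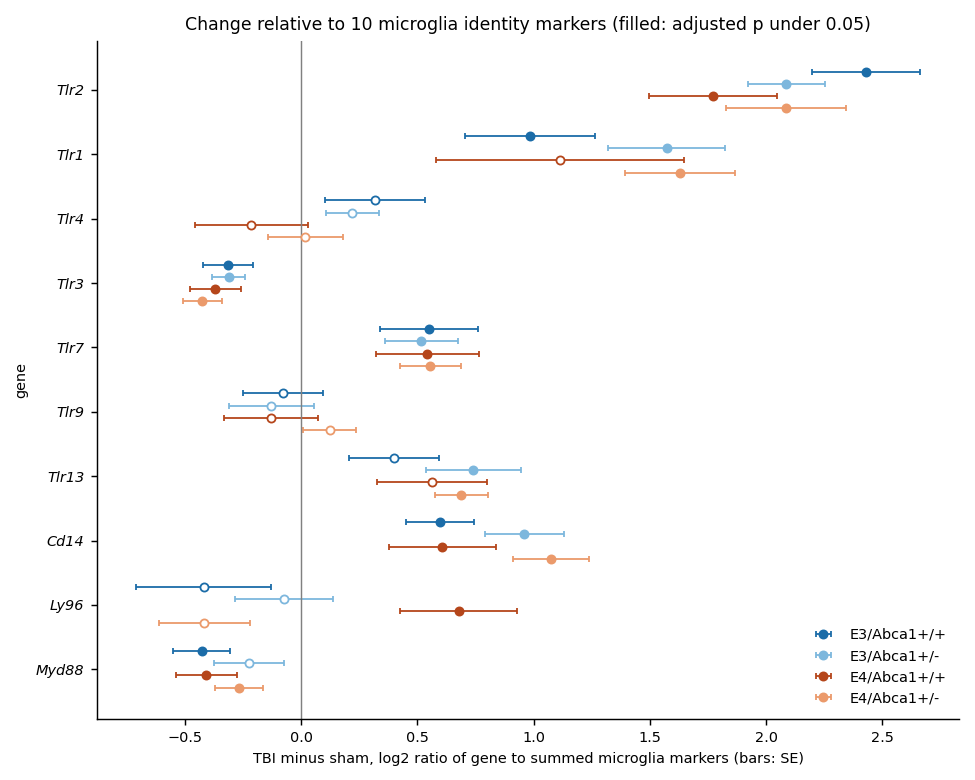
Difference between TBI and sham mice in the log2 ratio of each gene to the summed counts of 10 microglia identity genes, with its SE (horizontal axis), by gene and genotype, filled where the adjusted exact permutation p was under 0.05. Tlr2 lies farthest to the right (1.77 to 2.43) and Tlr3 lies left of 0 in all 4 genotypes, whereas with the pan-myeloid sum as divisor Tlr7 was below 0 as well.

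The rest of the pathway was read from 8 lists of receptors, chaperones, adaptors, kinases, transcription factors, inhibitors, target genes and tissue-derived ligands. Of their 79 genes 71 were in the table, 26 were higher after TBI in all 4 genotypes, 1 was lower in all 4 and 23 were called in none, while 7.13% of all genes were higher in all 4. Among other receptors, Tlr6 (mean log2 fold change over the genotypes 1.41) and Cd180 (2.38), which modulates Tlr4 in B cells and myeloid cells, were higher in all 4. Among chaperones and accessory proteins, 4 of 10 were higher in all 4, with Slc15a3, an endosomal transporter, at 2.42, Ly86, the partner of Cd180, at 1.88, and Unc93b1, which carries the nucleic acid sensors to endosomes, at 1.57. Hsp90b1 and Cnpy3, which fold the receptors in the endoplasmic reticulum, were called in no genotype (0.03 and 0.03).

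Downstream, 2 of 5 other adaptors were higher in all 4 genotypes, namely Ticam2 (mean log2 1.63), the bridge from Tlr4 to TRIF, and Pik3ap1 (1.63). Of 15 kinases and ligases, 3 were higher in all 4 (Ikbke 1.44, Irak4 1.29 and Tab2 0.23), Tab3 was lower in all 4 (-0.21), and 9 were called in none, among them Tbk1 (-0.06) and Traf6 (0.01). Transcription factors gave 5 of 9, led by Irf7 (2.04), Irf8 (1.70) and Irf5 (1.15), the interferon regulatory factors of innate immune cells. Only Nfkbia (0.50), the inhibitor of NF-kB that is also its target, was higher in all 4 among 9 measured inhibitors, and 5 were called in none, among them Tnfaip3 (0.19) and Sigirr (0.29).

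Among target genes, 5 of 8 measured were higher in all 4 genotypes, and all 5 were chemokines, with mean log2 fold changes of 4.51 for Cxcl10, 4.43 for Ccl2 and 3.80 for Ccl5. Ptgs2 (-0.42), the inducible cyclooxygenase, and Nos2 (0.08), the inducible nitric oxide synthase, were called in none. Of 11 genes listed as tissue-derived ligands, 4 were higher in all 4, led by Lcn2 (7.17), the iron-binding lipocalin, S100a8 (3.59) and the proteoglycan biglycan (Bgn, 0.81). Hmgb1 (0.02), Hspd1 (-0.02) and Hspa1a (-0.17) were called in none. Whether the products of the listed genes acted as ligands here was not tested. S100a8 is also on the list of markers of monocytes and neutrophils.

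The next question of the design was whether Abca1 copies changed the members. No member was called between Abca1+/- and Abca1+/+ mice in E3 sham, E3 TBI, E4 sham or E4 TBI by edgeR or by DESeq2, where edgeR called 2.2%, 0.178%, 0.903% and 1.39% of all genes. At an unadjusted p under 0.05 edgeR gave 0, 0, 2 and 4 members, and 16.5%, 8.99%, 15.7% and 18.2% of all genes. Those 4, in injured E4 mice, were Tlr2 (21.0 ± 8.90 CPM, SD, n = 8, against 10.96 ± 7.82, n = 7), Tlr1, Cd14 and Tlr7, with log2 differences of 0.96 (95% confidence interval 0.22 to 1.70), 0.77, 0.64 and 0.63 and adjusted p of 0.16 to 0.27. All 10 differences were above 0 there, with a median of 0.38, against 3 of 10 and a median of -0.11 in injured E3 mice.

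A single mouse bore on that comparison. E4/Abca1+/+ TBI replicate 6 had the highest level of all 10 members in its group, among them 26.8 CPM of Tlr2 and 31.1 CPM of Tlr7, and its microglia identity sum was 1157.3 CPM against 649.0 to 1041.3 CPM in the other 6. Without it, Tlr2 (log2 1.29), Tlr7 (0.92) and Cd14 (0.91) were called higher in Abca1+/- mice (adjusted p = 0.032, 0.046 and 0.033). The share of all genes called in that fit was not kept, so these calls cannot be set against it. Other omissions moved the values the other way. Over the 15 fits that each left out 1 mouse, the log2 difference of Tlr2 ran from 0.81 to 1.29. That of Tlr7 ran from 0.49 to 0.92 and that of Cd14 from 0.53 to 0.91. The largest adjusted p by edgeR was 0.31 for Tlr2, 0.45 for Tlr7 and 0.39 for Cd14. The microglia identity genes moved alongside in the full comparison, with 10 of 10 above 0 (median log2 0.29, 0 called), as did the pan-myeloid genes, with 10 of 10 above 0 (median 0.65, 1 called), and their part in the result was not tested.

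Among sham E4 mice, Ly96 was 0.902 ± 0.268 CPM (SD, n = 7) in Abca1+/- and 0.387 ± 0.168 CPM (n = 7) in Abca1+/+ mice (log2 1.10, adjusted p = 0.086), and Tlr7 differed by 0.50 (adjusted p = 0.15). Over all 58 mice, with group means weighted equally, Ly96 was called higher in Abca1+/- mice (log2 0.36 ± 0.13 SE, adjusted p = 0.044), beside 9.49% of all genes called higher. At equal depth none of the 9 members tested (without Ly96, which the filter on low counts removed at that depth) was called. DESeq2 gave Ly96 no adjusted p and called Tlr2 instead (log2 0.48, adjusted p = 0.027), beside 1432 of 15171 genes called higher.

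The other genotype question was whether the APOE isoform changed the members. In Abca1+/+ mice no member was called between E4 and E3 by edgeR or DESeq2, sham or injured, where edgeR called 0.349% and 0.211% of all genes. No member had an unadjusted p under 0.05 in edgeR, against 8.75% (sham) and 7.2% (injured) of all genes. In Abca1+/- mice, Tlr7 was higher in E4 sham mice (6.15 ± 1.15 CPM, SD, n = 7, against 4.59 ± 0.444, n = 7), with a log2 difference of 0.43 ± 0.12 SE and an adjusted p of 0.042, beside 2.85% of genes called higher. There 5 of the 7 E4 mice were above every E3 mouse. The call was lost with sex as a covariate (adjusted p = 0.053), in a single fit of all mice (0.34) and at equal depth (0.17).

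In injured Abca1+/- mice, Tlr1 was higher in E4 (4.35 ± 1.99 CPM, SD, n = 8) than in E3 (2.03 ± 0.614 CPM, n = 6), with a log2 difference of 1.08 ± 0.27 SE and an adjusted p of 0.042, where 1.1% of genes were called higher. The E4 mice ran from 2.14 to 8.65 CPM and the E3 mice from 1.40 to 3.20 CPM, and 5 of 8 E4 mice were above every E3 mouse. All 10 members were above 0 in this comparison, with a median log2 difference of 0.50 against 0.0008 over all genes, and 8 had an unadjusted p under 0.05, as had 18.7% of all genes. Tlr7 (0.74, adjusted p = 0.10) and Tlr2 (0.81, adjusted p = 0.11) came next. The identity and pan-myeloid markers were all above 0 as well (medians 0.32 and 0.57, with 1 and 2 called), and their part was not tested. At equal depth Tlr1 was not called (adjusted p = 0.16). The call also rested on single mice. Each E4 mouse was left out in turn, a choice made after seeing the data, and the log2 difference of Tlr1 ran from 0.86 to 1.18 with adjusted p from 0.023 to 0.074. The call was lost without replicate 1, 3, 5 or 7 (adjusted p = 0.059, 0.074, 0.066 and 0.066). E4/Abca1+/- TBI replicate 8, which had the highest Tlr1 (8.65 CPM), also had the highest Cd4 and Cd8a sum (12.4 CPM against 0.789 to 3.72 CPM in the other 7 mice) and the highest microglia identity sum of its group (1346.6 against 816.5 to 1287.6 CPM), and without it the log2 difference was 0.86 (adjusted p = 0.040). Without replicate 6, Tlr2 (adjusted p = 0.031) and Tlr7 (0.048) were called beside Tlr1, in a fit whose share of all genes called was not kept. Over all mice Tlr1 was the only member called for isoform (log2 0.51 ± 0.18, adjusted p = 0.048), beside 8.03% of genes called higher.

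**Figure D4:**
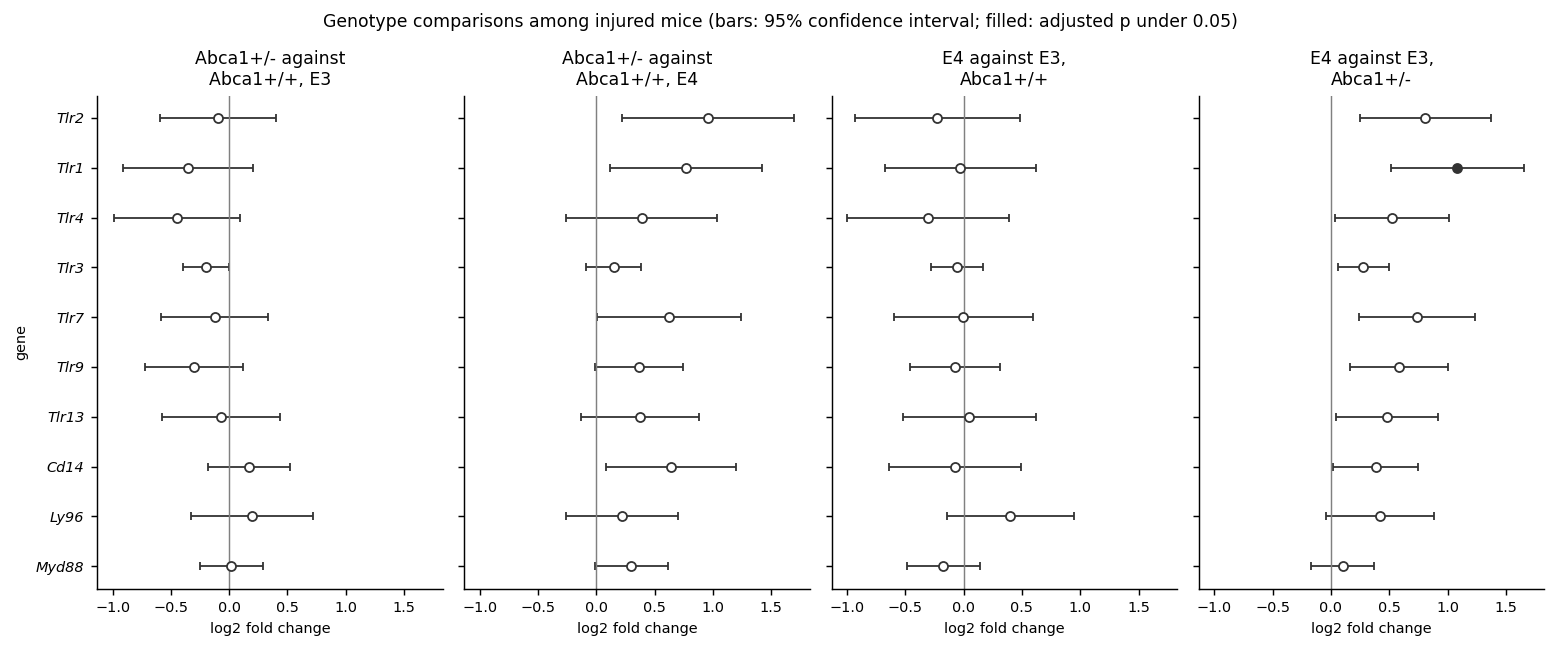
Log2 fold change with its 95% confidence interval (horizontal axes) of each of the 10 genes among injured mice, for Abca1+/- against Abca1+/+ in E3 and E4 mice and for E4 against E3 in Abca1+/+ and Abca1+/- mice, filled where the adjusted p was under 0.05. Points of all 10 genes lie right of 0 in the E4 panel for Abca1 and in the Abca1+/- panel for isoform, and only Tlr1 in the latter (1.08) is filled.

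E4/Abca1+/- TBI mice had the highest mean level of all 10 members among the 4 injured groups. Of all genes, 35.2% had their highest injured mean in that group. Among sham groups the highest mean of the members was spread, as E3/Abca1+/+ mice held it for 4 members, E4/Abca1+/- mice for 4 and E4/Abca1+/+ mice for 2. Whether genotype changed the response to injury was tested by interaction terms over 4 groups at a time, and edgeR called 0 members and 0 genes (0.0%) in each of the 4 tests, with DESeq2 also calling 0 members. Of all genes DESeq2 called 3 for isoform by injury in Abca1+/- mice and 0 in the other 3 tests. At an unadjusted p under 0.05, Ly96 passed for Abca1 in E4 mice (log2 -0.88) and for isoform in Abca1+/+ mice (1.08), and Tlr9 for isoform in Abca1+/- mice (0.58), with adjusted p of 0.775 or more. Of all genes, 4.84%, 2.12% and 6.34% passed that unadjusted threshold in the same order of tests.

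The response of the members was also compared between the sexes, over all 58 mice with genotype in the fit. Of the 10 members 0 were called by edgeR or DESeq2 (0.0% of all genes by edgeR, and 1 gene by DESeq2), and 6 had an unadjusted p under 0.05, as had 7.63% of genes. All 6 had the smaller response in males: Tlr3 (log2 -0.30), Tlr9 (-0.57), Tlr4 (-0.62), Tlr2 (-0.82), Tlr7 (-0.51) and Tlr13 (-0.44), each with an adjusted p of 0.33 or more. Tlr4 averaged 7.04 ± 2.69 CPM (SD, n = 14) in injured females and 4.34 ± 1.75 CPM (n = 15) in injured males, with 2.596 ± 0.681 (n = 14) and 2.36 ± 0.544 CPM (n = 15) in sham. Tlr2 averaged 17.7 ± 8.45 CPM in injured females and 11.1 ± 5.70 CPM in injured males. Microglia identity sums were also higher in injured females (median 994.9 CPM) than in injured males (780.3 CPM), against 458.1 and 435.3 CPM in sham, and their part was not tested.

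Injured mice of 1 group differed several fold in some members, as for Tlr2 in E4/Abca1+/+ mice (5.49 to 26.8 CPM). Tlr3 differed less (20.5 to 31.3 CPM in injured E3/Abca1+/+ mice). Most pairs of members differed together. Over the 29 injured mice, with the mean of each group removed from log2(CPM + 1), 31 of the 45 pairs of members had a positive Pearson correlation that passed a permutation test within groups (100000 resamples, adjusted over the 45 pairs), and none was below 0. The closest pair was Tlr2 with Tlr7 (r = 0.904, Spearman's rho = 0.884, permutation p = 1e-05 for both, the smallest these resamples can give, adjusted p = 4.5e-05 and 0.00015), and r was 0.864 after the 2 mice most distant from the Tlr2 median were left out. Tlr7 with Tlr13 (r = 0.862, rho = 0.842) and Tlr1 with Tlr2 (r = 0.845, rho = 0.836) followed, both with the same smallest p for r (permutation test). Ly96 passed with none of the other 9 members (r = 0.147 to 0.410), at the lowest counts next to Tlr1.

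Within the 15 injured Abca1+/+ mice 19 pairs passed and within the 14 injured Abca1+/- mice 24, and Tlr2 with Tlr7 was at r = 0.898 and 0.913. With the mean of each group and sex removed, 28 pairs passed. The 2 values of a pair come from 1 library per mouse and share its depth.

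**Figure D5:**
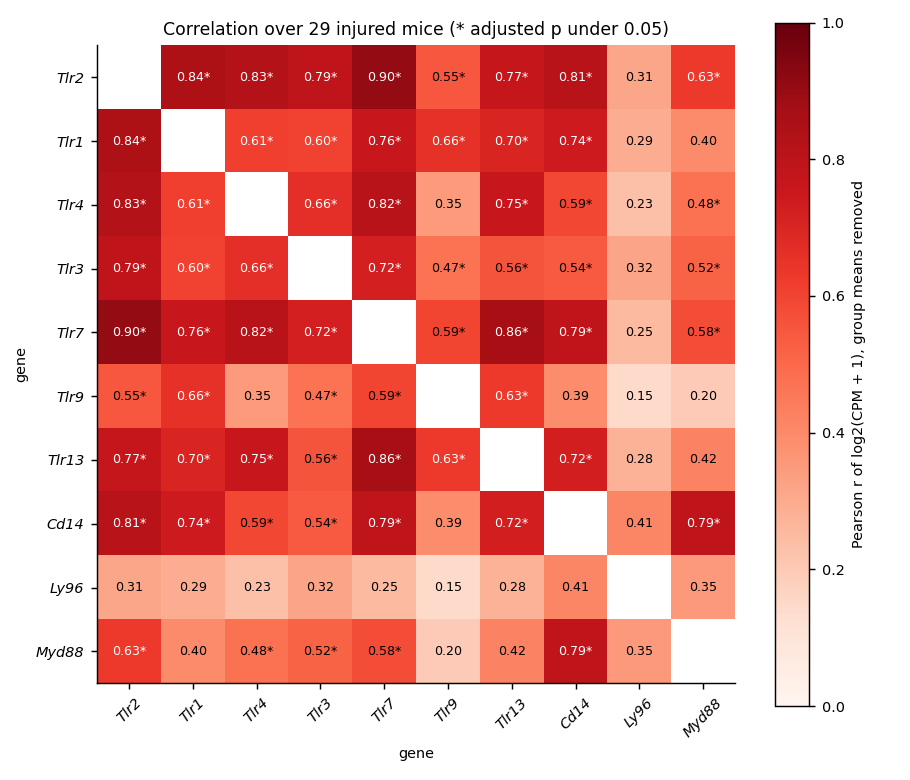
Pearson r of log2(CPM + 1), with group means removed, between each pair of the 10 genes over 29 injured mice (both axes list genes, the colour scale runs from 0 to 1), with an asterisk where the adjusted permutation p was under 0.05. Tlr2 and Tlr7 reach 0.904, and the Ly96 row holds no asterisk.

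The genes of the whole table that ranged most like each member over the same 29 mice were searched among those with a mean of at least 1 CPM, with the same residuals. For Tlr2 the closest was Ctsh (r = 0.974), a lysosomal cathepsin, and for Tlr7 they were Cybb (0.944), the NADPH oxidase subunit of phagocytes, and Mpeg1 (0.940), a macrophage perforin. For Tlr1 they were Ptpn6 (0.919) and Ctss (0.915), for Cd14 Cebpa (0.906) and Arpc1b (0.904), and for Tlr13 Atp6v0d2 (0.905) and Capg (0.899). For Tlr4 they were Ggta1 (0.890) and Ppfibp1 (0.880), and for Tlr3 Ticam2 (0.847), the adaptor named above, and Runx1 (0.836). Tlr9, Ly96 and Myd88 had looser neighbours, Tmem219 (0.755), Ino80c (0.693) and Dap (0.841) in that order.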

How the data were processed

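The authors deposited 1 table of raw read counts per gene for all 58 mice. Per the labels and the study's methods it was made with Subread (1.5.0) and featureCounts on mm10, and the submitters' processing notes also name edgeR, while the annotation version is not given in the sources used here. After 2 blank lines were dropped, 15171 genes remained, and filterByExpr over the 8 groups removed none. From the counts, edgeR (4.0.16, R 4.3.3) gave TMM-scaled CPM and quasi-likelihood tests, with 1 fit per comparison holding only the mice concerned. Adjusted p-values are Benjamini-Hochberg values over all 15171 genes. DESeq2 (1.42.0), other filters, sex as a covariate, 1 fit of all mice, equal depth and omitted single mice were the alternatives. Depth was 4421308 to 37877346 counts per mouse. Strand use and read length are not given in the sources used here. Each mouse was 1 library and no 2 libraries were identical. On simulated counts with 200 changed genes, the edgeR step for TBI against sham in E3/Abca1+/+ mice, run on 15171 genes, recovered 92% of the 100 changed by log2 1. All 10 members are described. Other pathway genes were named if among the 3 largest changes in either direction of their list that passed in every genotype, or if they passed in none. The members and lists were chosen with earlier results of these data known. Exon lengths come from GENCODE vM21 and promoters from RefSeq.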

Additional observations from a re-analysis of the deposited data

Results flagged for a closer look

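In the 80 sets of values (10 genes in 8 groups), 2 held a mouse that lay far from the others of its group by Dixon's gap test, which chance alone does in about 1 of 20 groups. Tlr4 was 2.59 CPM in E3/Abca1+/- sham replicate 2, against 1.86 to 2.06 CPM in the other 6 mice. Tlr13 was 6.65 CPM in E4/Abca1+/+ sham replicate 5, against 2.23 to 3.20 CPM in the other 6. The microglia identity sum of that mouse, 458.8 CPM, was the highest of its group, and its pan-myeloid sum, 186.1 CPM, was the group's median.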

How the results depend on the processing

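Among the counts of called members, those for TBI against sham kept within 1.5 times the reported value under every alternative run, with leave-one-out ranges of 9 to 9 (E3/Abca1+/+), 10 to 10 (E3/Abca1+/-), 8 to 10 (E4/Abca1+/+) and 9 to 10 (E4/Abca1+/-). For Abca1 in injured mice, leaving out mice gave 0 to 0 members in E3 and 0 to 3 in E4, the 3 without E4/Abca1+/+ TBI replicate 6. For isoform in injured Abca1+/- mice, leaving out each E4 mouse gave 0 to 3 members (0 without replicate 1, 3, 5 or 7, and 3 without replicate 6). Shares of all genes called were not kept for fits with a mouse left out. With 1 fit over all mice, Abca1 gave 1 member in E4 sham and 2 in E4 TBI, and isoform in Abca1+/- gave 0 in sham and 3 in TBI. Of all 15171 genes that setting called 99, 1359, 731 and 899 in the same order, against 137, 211, 779 and 440 in the main fits. With sex as a covariate, isoform in Abca1+/- gave 0 in sham and 2 in TBI (717 and 570 of all genes), and Abca1 over all mice gave 2 (2815 genes). DESeq2 gave 2 for isoform in Abca1+/- TBI (919 genes). At equal depth, isoform in Abca1+/- sham, isoform over all mice and Abca1 over all mice each gave 0 members, where 225, 1397 and 1748 of 14053 genes were called. A mean CPM of at least 1, which removes Ly96, gave 0 for Abca1 over all mice, where 2729 of 14380 genes were called. Within injured Abca1+/+ mice 19 pairs of members passed, with fewer mice. With the pan-myeloid divisor the TBI minus sham log2 ratio reversed for Tlr7 (-0.17 in E3/Abca1+/+, -0.21 in E3/Abca1+/-, -0.16 in E4/Abca1+/+, -0.36 in E4/Abca1+/-), Tlr13 in E4/Abca1+/- (-0.23), Cd14 in E3/Abca1+/+ (-0.13) and E4/Abca1+/+ (-0.10), and Ly96 in E4/Abca1+/+ (-0.027). Where no construction is named the cause was not tested. The filter within each fit, the removal of sex means and the omission of E4/Abca1+/- TBI mice from the isoform comparison were chosen after seeing the data. No paired analysis was possible because the labels give no replicate numbers that mice of different groups share. Depth limits Tlr1 and Ly96 in Abca1+/+ libraries.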
